A study of Mus musculus with 22 samples.

Results

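The genes described here are 35 mouse genes of cholesterol synthesis and sterol regulation: 20 enzymes of the mevalonate and sterol steps, 5 regulators, and 10 genes of sterol uptake, storage, transport and efflux. They were chosen by symbol, and all probes that the array annotation maps to those symbols were used. Of the 35 genes, 30 had a named probe, with 54 probes among the 45281 on the array. For 24 genes at least 1 probe passed the filter on dim signal (detection p under 0.05 on at least 5 of the 22 arrays) and was tested. Acat2, Hmgcs1, Fdft1, Soat1 and Soat2 had no named probe and were not analysed here.

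Illumina bead arrays measured the RNA of epithelial cells that EDTA released from the colon of male BALB/c mice aged 6 to 10 weeks. The 4 groups were pIgR-KO mice given antibiotics for 17 days (KO_antibiotic, 6 arrays), wild-type mice given antibiotics (WT_antibiotic, 5 arrays), pIgR-KO mice left untreated (KO_untreated, 6 arrays) and wild-type mice left untreated (WT_untreated, 5 arrays). pIgR is the polymeric immunoglobulin receptor, which carries IgA and IgM across the epithelium into the gut lumen, so mice without it lack secretory antibodies. The labels do not say which agents the antibiotic treatment held, how the knockout allele was made, or whether an array held RNA of 1 mouse or of several, so p-values measure only the spread between these samples.

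Cholesterol is built from acetyl-CoA through mevalonate, farnesyl diphosphate, squalene and lanosterol. SREBP2, the product of Srebf2, is a membrane-bound transcription factor of the endoplasmic reticulum that is known to switch on most of these enzymes when sterols are low. SCAP escorts it to the Golgi for cleavage, and the INSIG proteins hold SCAP back when sterols are plentiful. Enterocytes both make cholesterol and handle dietary sterol, which ABCG5 and ABCG8 together pump back into the lumen.

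Stretches of 6 promoters are shown because most of these genes share a CCAAT box, the site of the factor NF-Y, which is known to act beside SREBP2. Each is read from RefSeq promoter windows (250 bases before to 50 after the start) of assembly GRCm38.p6, 5′ to 3′ on the strand of the gene. Capitals mark CCAAT or its reverse complement ATTGG. Mvd, Cyp51, Srebf2, Pmvk and Npc2 were among the genes higher in KO_untreated mice, and Idi1 was not past the threshold. Pmvk has a second window, which is not shown.
Mvd (chr8:122443423-122443522, minus strand): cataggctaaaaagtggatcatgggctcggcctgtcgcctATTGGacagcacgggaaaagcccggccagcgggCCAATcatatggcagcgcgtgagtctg
Cyp51 (chr5:4104698-4104797, minus strand): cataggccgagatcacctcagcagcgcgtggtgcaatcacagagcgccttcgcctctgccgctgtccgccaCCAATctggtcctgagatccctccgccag
Srebf2 (chr15:82147114-82147213, plus strand): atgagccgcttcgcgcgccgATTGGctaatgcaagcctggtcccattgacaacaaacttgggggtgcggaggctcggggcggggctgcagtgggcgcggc
Pmvk (chr3:89454385-89454484, plus strand): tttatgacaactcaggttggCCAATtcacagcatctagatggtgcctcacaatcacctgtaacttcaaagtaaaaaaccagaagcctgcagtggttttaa
Npc2 (chr12:84773113-84773212, minus strand): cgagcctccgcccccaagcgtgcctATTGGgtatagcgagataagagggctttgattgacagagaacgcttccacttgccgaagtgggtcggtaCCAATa
Idi1 (chr13:8885506-8885605, plus strand): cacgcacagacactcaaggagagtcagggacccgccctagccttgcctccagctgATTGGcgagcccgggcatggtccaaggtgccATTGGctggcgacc

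Windows were found for 27 of the 35 genes, 20 of them with a tested probe. CCAAT, searched on both strands, stood in a window of 19 of those 20 (95%), against 42.9% of the 8691 genes that had both a tested probe and a window. Of the genes higher in KO_untreated mice, the 8 with a window all had the box in at least 1 window, as did 9 of the 10 (90.0%) tested members that were not past the threshold. Dhcr7 and Pmvk have several windows, and each of these genes has windows without the box. The windows of Abcg5 and Abcg8 overlap, and the only Abcg5 box is also counted for Abcg8. GGGCGG, the core of the site that SP1 binds, was in 85.0% of the 20 tested members and 66.3% of the tested genes. CACGTG was in 25.0% and 11.8%. A strict form of the sterol response element, TCACNCCAC, was in none of the 20 tested members and in 1.36% of the tested genes. Among all 27 members it was found in Hmgcs1 alone. These matches describe letters in a window and overlap in part with each other.

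Signals were background corrected, quantile normalised and put on a log2 scale, and all values below are log2 levels or log2 differences on that scale. Between 15975 and 18388 probes were detected per array. As a check of the labels, Pigr averaged 9.99 ± 0.74 in KO_untreated and 11.85 ± 0.37 in WT_untreated mice (SD, n = 6 and 5), and 9.35 ± 0.60 in KO_antibiotic and 11.55 ± 0.27 in WT_antibiotic mice (SD, n = 6 and 5). The difference was -1.86 untreated and -2.20 with antibiotics (limma, adjusted p = 0.00131 and 0.000654), with no overlap. All 13 epithelial markers were detected on all 22 arrays. Of 18 leukocyte markers with a probe, 4 were detected on all arrays and 4 on none (Cd8a, Itgam, Adgre1 and Mcpt2), and of 13 stromal, muscle and endothelial markers, 0 on all and 3 on none (Col1a1, Col3a1 and Lum). The T cell gene Cd3e was detected on all arrays, at 5.37 to 8.07 in KO_untreated and 5.24 to 7.03 in WT_untreated mice. A suffix of unstated meaning is found in the descriptions of KO_untreated arrays 2 to 6 and of no array besides them. The descriptions of KO_untreated 1 and 2 share a number, and the labels do not say whether both came from 1 mouse. In these bulk samples, fewer cells of a type and less RNA per cell cannot be told apart.

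In untreated mice, loss of pIgR went with higher levels of much of the synthesis pathway. Of the 24 tested members, 9 were higher and 2 lower in KO_untreated than in WT_untreated mice at an adjusted p under 0.05 (limma, Benjamini-Hochberg over all 19993 tested probes). Over all 10705 genes with a tested probe, 12% were called, 6.27% higher and 5.74% lower. The 9 were Mvk, Pmvk, Mvd, Fdps, Lss, Cyp51, Dhcr7, Srebf2 and Npc2, and the 2 were Abcg5 and Abcg8. The median difference over the 24 members was 0.40, against 0.05 over all genes with a tested probe. In 6 members every KO_untreated array lay above every WT_untreated array and in none below, against 4.82% and 5.4% of genes.

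Among the mevalonate enzymes 4 of 5 tested members rose. Fdps makes farnesyl diphosphate, the branch point to sterols and prenylated proteins, and had the smallest p of the members. Its level was 11.18 at the lowest, 11.33 at the median and 11.76 at the highest in KO_untreated mice, and 10.33, 9.67, 10.72, 10.59 and 10.53 on WT_untreated arrays 1 to 5. All 6 KO_untreated arrays were above the WT_untreated arrays, of which array 2 was low. The difference was 1.02 ± 0.17 (SE), a 2.03-fold rise (limma, adjusted p = 0.00136). A dimmer second Fdps probe, ILMN_1232741, gave 0.14 ± 0.32 (SE, adjusted p = 0.803), so the probes disagree.

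Mvd, which decarboxylates mevalonate diphosphate to isopentenyl diphosphate, had 8.45, 8.90 and 9.20 (lowest, median, highest) in KO_untreated mice, against 7.996, 7.27, 7.87, 8.28 and 7.84 on WT_untreated arrays 1 to 5. The groups did not overlap, with WT_untreated 2 again the lowest. The difference was 0.999 ± 0.23 (SE, 2.00-fold, adjusted p = 0.0114).

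Mvk phosphorylates mevalonate, the first step after HMG-CoA reductase. It had 5.87, 6.23 and 6.63 (lowest, median, highest) in KO_untreated mice and 5.21, 4.89, 5.73, 5.29 and 5.42 on WT_untreated arrays 1 to 5. The groups did not overlap, and the difference was 0.90 ± 0.19 (SE, 1.86-fold, adjusted p = 0.00825).

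Pmvk adds the second phosphate to mevalonate. Its levels were 6.95, 7.18 and 7.68 (lowest, median, highest) in KO_untreated mice and 6.33, 6.02, 7.07, 6.55 and 6.66 on WT_untreated arrays 1 to 5. KO_untreated 4 was below WT_untreated 3, and the other 5 KO_untreated arrays were above all WT_untreated ones. The difference was 0.77 ± 0.17 (SE, 1.70-fold, adjusted p = 0.0109). Idi1, the isomerase between Mvd and Fdps in the pathway, was the exception among the mevalonate enzymes, with a difference of -0.30 ± 0.33 (SE, adjusted p = 0.555). Its levels overlapped, with 5.72 to 7.19 in KO_untreated and 6.20 to 7.23 in WT_untreated mice.

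Of 11 tested sterol enzymes, which turn squalene into cholesterol, 3 rose and none fell. Dhcr7, the last reductase of the Kandutsch-Russell branch, was at 7.68, 7.88 and 8.32 (lowest, median, highest) in KO_untreated mice, against 7.27, 7.26, 7.14, 7.51 and 7.56 on WT_untreated arrays 1 to 5. The groups did not overlap (difference 0.59 ± 0.14 SE, 1.51-fold, adjusted p = 0.0143).

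Lss, which cyclises oxidosqualene to lanosterol, was at 8.07, 8.35 and 8.998 (lowest, median, highest) in KO_untreated mice and at 7.57, 7.05, 7.75, 8.22 and 7.40 on WT_untreated arrays 1 to 5. The groups overlapped through WT_untreated 4, and the difference was 0.83 ± 0.23 (SE, 1.78-fold, adjusted p = 0.0262). Cyp51 removes the first methyl group of lanosterol. It was at 8.90, 9.32 and 9.54 (lowest, median, highest) in KO_untreated mice and at 8.39, 7.81, 9.12, 8.95 and 8.68 on WT_untreated arrays 1 to 5. KO_untreated 1 was lower than 2 of the WT_untreated arrays, and the difference was 0.69 ± 0.21 (SE, 1.61-fold, adjusted p = 0.0395).

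Sqle, squalene epoxidase, was past the threshold in neither direction. It was at 9.98, 10.39 and 10.47 (lowest, median, highest) in KO_untreated mice and at 9.81, 9.07, 9.94, 9.996 and 9.46 on WT_untreated arrays 1 to 5. Only KO_untreated 3 lay within the WT_untreated range, and the difference was 0.64 ± 0.22 (SE, adjusted p = 0.0648). The 7 other sterol enzymes that did not pass were Tm7sf2, Lbr, Msmo1, Nsdhl, Hsd17b7, Ebp and Sc5d, with differences between -0.08 (Lbr) and 0.48 (Tm7sf2). Tm7sf2 and Lbr are alternative sterol C14 reductases, Msmo1 the C4 methyl oxidase, and Nsdhl and Hsd17b7 partners in removing the C4 methyl groups. Ebp isomerises the sterol ring and Sc5d desaturates it.

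**Figure D1:**
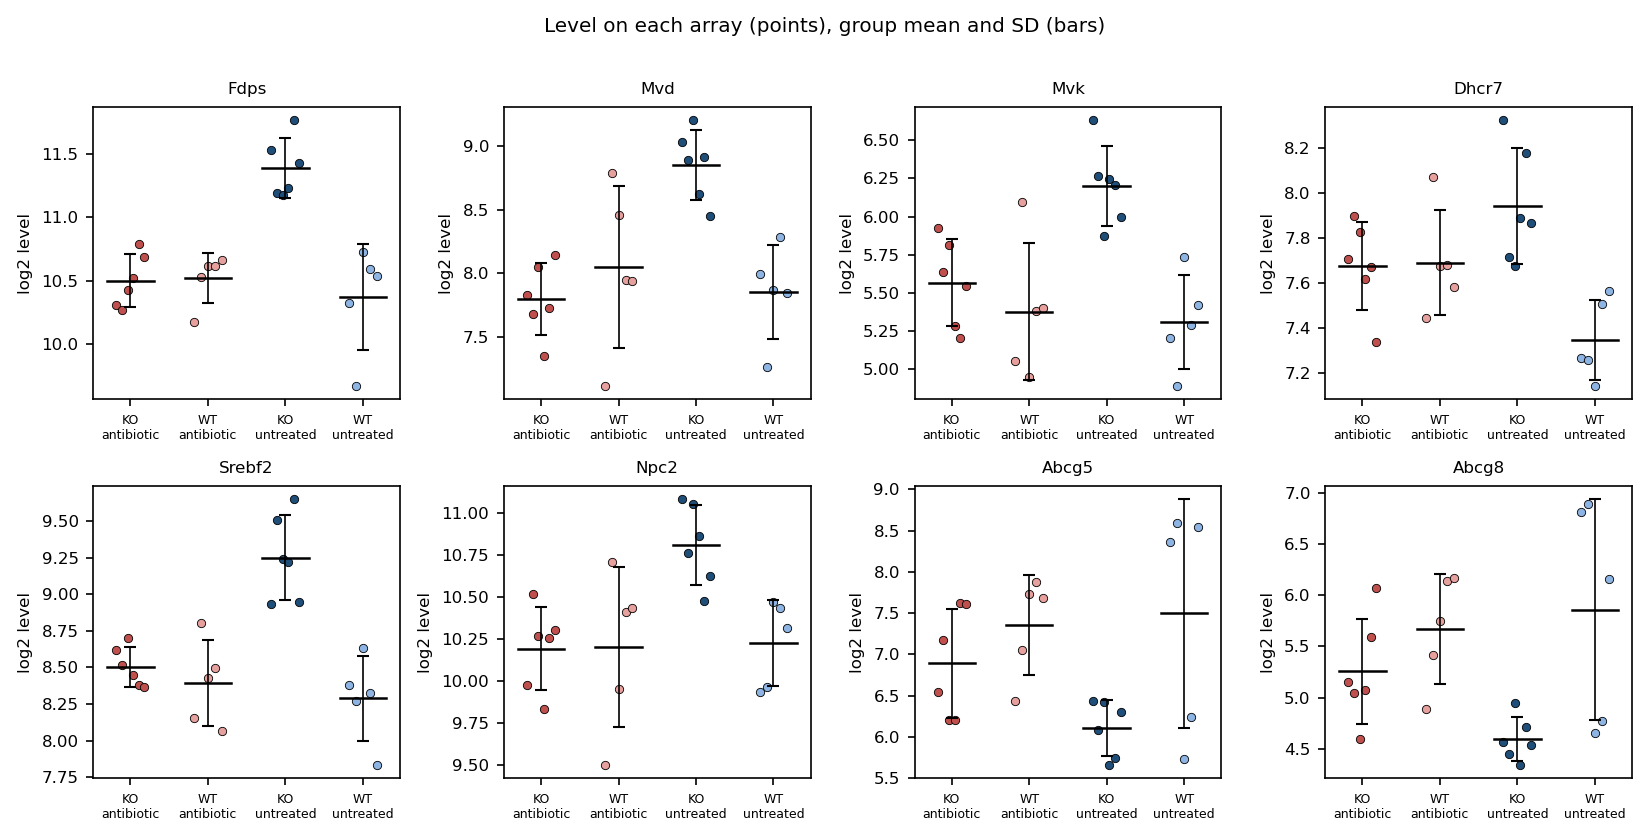
Log2 level (vertical axis) of 8 members on each array, by group, with the group mean and SD as bars (n = 6 for KO groups and 5 for WT groups). For Fdps, Mvd, Mvk, Dhcr7, Srebf2 and Npc2 the KO_untreated arrays lie above all WT_untreated arrays. For Abcg5 and Abcg8 the WT_untreated arrays fall into a high and a low set.

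Of the 4 tested regulators, 1 rose. Srebf2, the gene of the SREBP2 factor, was at 8.93, 9.23 and 9.65 (lowest, median, highest) in KO_untreated mice and at 8.38, 8.27, 8.63, 8.33 and 7.83 on WT_untreated arrays 1 to 5. The groups did not overlap, with WT_untreated 5 the lowest, and the difference was 0.96 ± 0.16 (SE, 1.95-fold, adjusted p = 0.00163). The second Srebf2 probe, ILMN_1234082, gave 0.40 ± 0.14 (SE, adjusted p = 0.0588), and its groups overlapped through KO_untreated 3.

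Scap, the escort of SREBP2, differed by 0.40 ± 0.19 (SE, adjusted p = 0.172). Its dimmer tested probe, ILMN_1229873, was at 5.81 ± 0.25 in KO_untreated and 5.79 ± 0.32 in WT_untreated mice (SD, n = 6 and 5). Insig1, the sterol-responsive retention protein, had a difference of 0.15 ± 0.15 (SE, adjusted p = 0.520) at its brightest probe, and 0.36 and 0.49 at its other tested probes (adjusted p = 0.178 and 0.0979). Stard4, a cytosolic sterol carrier, differed by -0.19 ± 0.26 (SE, adjusted p = 0.646). Mylip, the ligase that degrades the LDL receptor, had no probe above the filter.

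Among uptake and efflux genes, 4 of the 8 with a probe were tested. Npc2, which hands cholesterol to Npc1 inside the lysosome, was at 10.48, 10.81 and 11.09 (lowest, median, highest) in KO_untreated mice and at 9.94, 9.97, 10.47, 10.44 and 10.32 on WT_untreated arrays 1 to 5. The groups did not overlap, although the lowest KO_untreated and highest WT_untreated arrays nearly met, and the difference was 0.58 ± 0.19 (SE, 1.499-fold, adjusted p = 0.0447). Npc1, its membrane partner, differed by -0.15 ± 0.17 (SE, adjusted p = 0.573).

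Abcg5 and Abcg8, the partners that form the sterol export pump, fell together and are neighbours: their starts on chromosome 17 lie 110 bases apart on opposite strands. Abcg5 was at 5.66, 6.19 and 6.44 (lowest, median, highest) in KO_untreated mice, against 8.37, 8.59, 5.74, 6.24 and 8.54 on WT_untreated arrays 1 to 5. WT_untreated 3 and 4 were as low as the KO_untreated arrays while the other 3 stood well above them, and the difference was -1.39 ± 0.44 (SE, 2.62-fold lower, adjusted p = 0.0443). Abcg8 was at 4.34, 4.55 and 4.95 (lowest, median, highest) in KO_untreated mice, where it was detected on 2 of 6 arrays, and at 6.81, 6.89, 4.66, 4.78 and 6.16 on WT_untreated arrays 1 to 5. The same WT_untreated arrays were low, and the difference was -1.27 ± 0.35 (SE, 2.41-fold lower, adjusted p = 0.0254).

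Abca1, which loads cholesterol onto apolipoproteins, had group means of 4.27 ± 0.05 in KO_untreated and 4.41 ± 0.13 in WT_untreated mice (SD, n = 6 and 5), with no array where it was detected. Npc1l1, the apical cholesterol importer of the small intestine, had 4.26 ± 0.05 in KO_untreated and 4.29 ± 0.05 in WT_untreated mice (SD, n = 6 and 5) and was likewise detected on no array. Ggps1, which makes geranylgeranyl diphosphate, and Scarb1, the HDL receptor, were detected on none by their brightest probe. Abcg1, another exporter, was detected on 3 of 6 KO_untreated and 1 of 5 WT_untreated arrays and was not tested.

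These calls did not rest equally on all arrays. Leaving out 1 array at a time gave between 6 and 11 called members, with 6 without WT_untreated 2 or WT_untreated 5 and 7 without KO_untreated 1 or WT_untreated 1. The calls of Fdps, Mvd, Mvk, Pmvk, Dhcr7 and Srebf2 held in all 22 such fits, with the highest adjusted p at 0.0397 (Dhcr7). Those of Lss, Cyp51, Npc2, Abcg5 and Abcg8 were lost in 4, 8, 10, 11 and 4 of them. With KO_untreated 1, the array without the suffix, as the group's only array, the differences of Mvk, Lss, Mvd, Pmvk and Fdps were 1.32, 1.40, 1.18, 1.15 and 1.16 and those of Srebf2 and Cyp51 0.64 and 0.31. None was called in that fit, in which the lone array is assumed to vary like the other groups (lowest adjusted p 0.0549, Dhcr7). With KO_untreated 1 and 2 averaged and counted as 1 array, 9 members were called, 8 higher and 1 lower. With arrays scaled to a common median over all probes in place of quantile normalisation, 319 probes were called in all, against 2180, and the called members were Fdps, Mvd, Mvk and Srebf2.

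Cell division markers lay mostly above 0 in the same comparison. Of 12 tested markers, 1 rose (Mcm2, a replicative helicase subunit, 0.82), a share near the 6.27% of all genes called higher. Against 55.8% of all genes, 11 of the 12 markers were above 0, with a median of 0.48. Their mean shift from the WT_untreated mean ranged from 0.16 to 0.97 in KO_untreated and from -0.26 to 0.44 in WT_untreated mice. Bub1 of this list was detected on no array. With that mean level as a covariate, chosen after seeing the data, Fdps (0.89, adjusted p = 0.0178) and Srebf2 (0.88, adjusted p = 0.0178) were the only members called. The median over the members was then 0.35, against 0.40 without the covariate, and 172 of all tested probes were called, against 2180. Surface colonocyte markers lay lower in the same comparison, with 3 of 13 tested above 0 and a median of -0.27. Of these, Cd177 rose by 1.28 and Trpm6, a magnesium channel, was at -1.36 (adjusted p = 0.0183 and 0.00447). Their mean shift ranged from -0.32 to -0.15 in KO_untreated and from -0.17 to 0.16 in WT_untreated mice, and their part in the members' differences was not tested. Krt18, an epithelial keratin, rose by 0.72 and Dcn, a stromal proteoglycan, was at -1.27 (adjusted p = 0.0109 and 0.0489). Among the 13 epithelial markers 8 were above 0, and the median was 0.07. Of 13 tested leukocyte markers 1 rose, Mcpt1, a mast cell protease, by 3.04. Only 4 of the 13 were above 0, and the median was -0.15. The list's mean shift ranged from -0.55 to 0.72 in KO_untreated and from -0.56 to 0.51 in WT_untreated mice. With the leukocyte mean as a covariate 10 members were called, 8 higher and 2 lower.

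With antibiotics no member was called between the genotypes. Between KO_antibiotic and WT_antibiotic mice 0 of 24 members were called by limma, against 0.0187% of all genes. At their brightest probes 0 members had an unadjusted p under 0.05, against 3.24% of all genes. The dimmer Insig1 probes, ILMN_1245272 and ILMN_2606693, were at -0.57 and -0.49 (adjusted p = 0.9999 for each). The median over the members was -0.04, with a range from -0.46 (Abcg5) to 0.20 (Scap) at their brightest probes. The dimmer Scap probe, ILMN_1229873, went the other way, at 5.76 in KO_antibiotic and 6.04 in WT_antibiotic mice. For Fdps the difference was -0.02 with a 95% interval from -0.36 to 0.32. For Srebf2 it was 0.11 (interval -0.22 to 0.44), for Mvd -0.25 (-0.72 to 0.22) and for Mvk 0.19 (-0.21 to 0.59). Abcg5 (-0.46, interval -1.37 to 0.44) and Abcg8 (-0.42, interval -1.14 to 0.30) had wide intervals. The untreated differences have errors of their own, so these intervals do not show that a genotype difference changed with antibiotics. That question was put to the interaction, given below, which called no member.

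**Figure D2:**
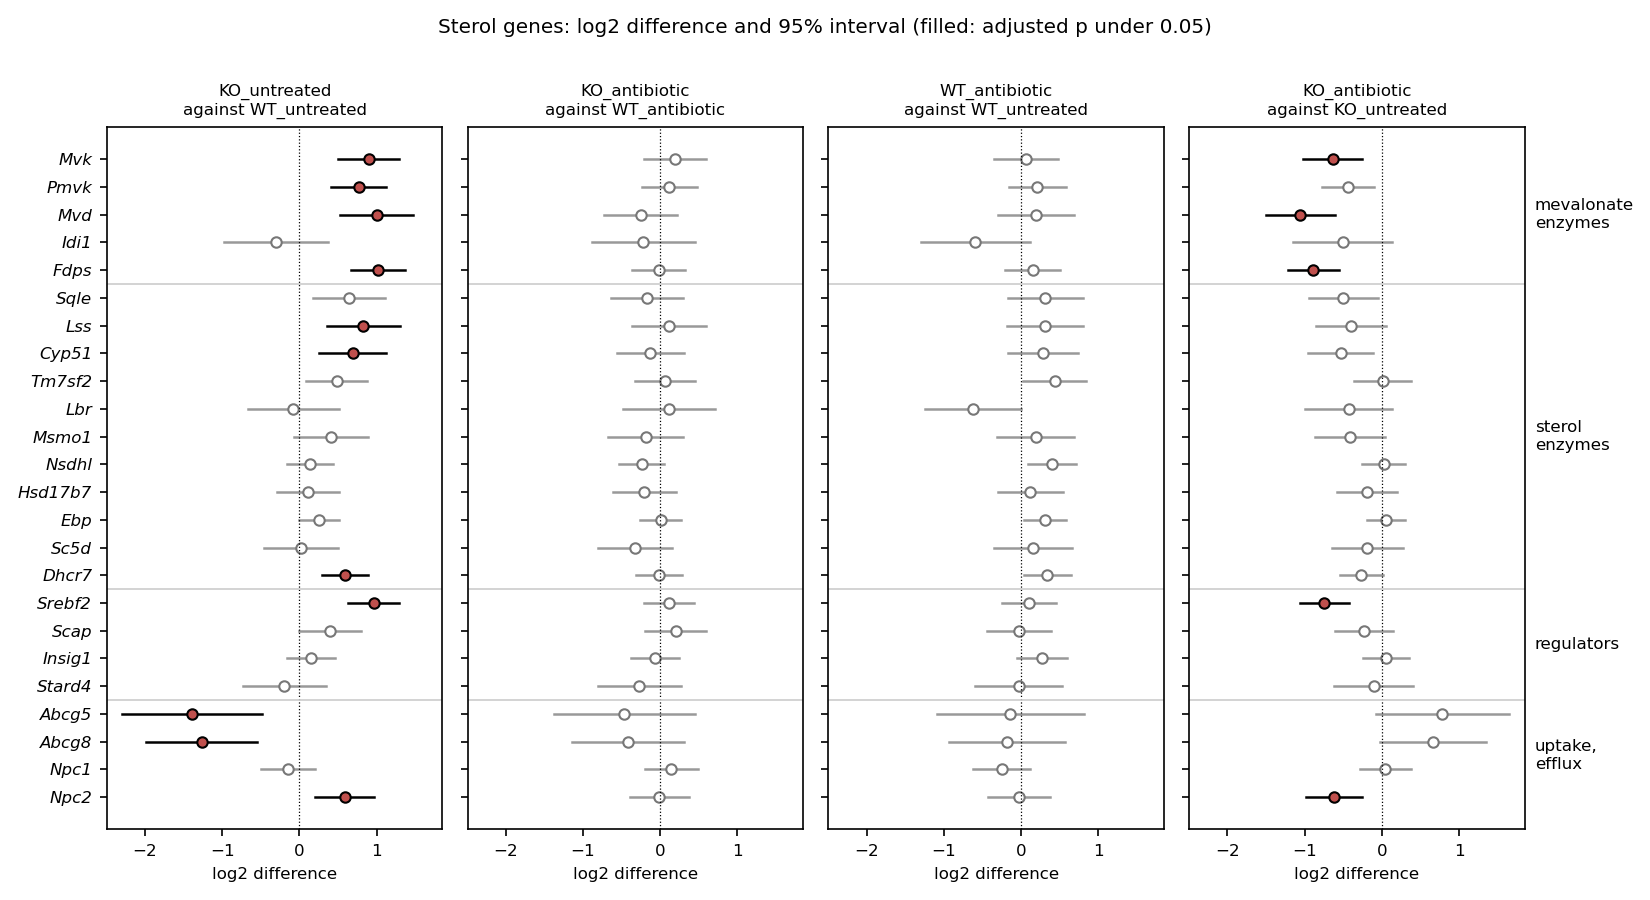
Log2 difference (horizontal axis) with its 95% interval for the 24 tested members, ordered by role from mevalonate enzymes at the top to uptake and efflux genes at the bottom, in 4 comparisons. Filled points had an adjusted p under 0.05: 11 between the untreated genotypes, none between the genotypes given antibiotics, none for antibiotics in WT and 5 for antibiotics in KO mice.

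In KO mice given antibiotics, 5 of 24 members fell and none rose, against 14.8% of all genes called, 6.16% higher and 8.6% lower. The 5 were Fdps, Mvd, Mvk, Srebf2 and Npc2, all among the 9 that were higher in KO_untreated mice, and both comparisons share the KO_untreated arrays. Fdps was at 10.27, 10.47 and 10.79 (lowest, median, highest) in KO_antibiotic mice, below every KO_untreated array. Its difference was -0.89 ± 0.16 (SE, 1.85-fold lower, adjusted p = 0.000485). Mvd was at 7.35, 7.78 and 8.14 (lowest, median, highest) in KO_antibiotic mice, again below every KO_untreated array, with a difference of -1.05 ± 0.22 (SE, 2.07-fold lower, adjusted p = 0.00188).

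Srebf2 was at 8.36, 8.48 and 8.70 (lowest, median, highest) in KO_antibiotic mice and fell by 0.74 on the log2 scale relative to KO_untreated mice (SE 0.15, adjusted p = 0.00164). These 3 genes were the members whose groups did not overlap, against 4.66% of all genes lower without overlap. The second Srebf2 probe did not follow, with a difference of 0.06 ± 0.13 (SE, adjusted p = 0.827). Mvk differed by -0.64 ± 0.18 (SE, adjusted p = 0.0231) and Npc2 by -0.62 ± 0.18 (SE, adjusted p = 0.0216), each with 1 KO_antibiotic array inside the KO_untreated range.

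None of the 11 sterol enzymes was called in KO mice, where Cyp51 was at -0.53 and Sqle at -0.50 (adjusted p = 0.0902 and 0.146). The KO_antibiotic group was not uniform for some members. Sqle was at 9.61, 9.30 and 9.28 on KO_antibiotic arrays 1 to 3, and at 9.92, 10.45 and 10.225 on arrays 4 to 6. Lbr was at 8.19, 8.12 and 8.32, and at 9.65, 9.40 and 9.51 on the same arrays. For Cyp51 these sets overlapped, and for Srebf2 arrays 1 to 3 were the higher ones. The cause was not tested. Abcg5 and Abcg8 were at 0.79 ± 0.42 and 0.66 ± 0.33 (SE, adjusted p = 0.260 and 0.225). The calls of Mvk and Npc2 were lost without KO_untreated 1 or without KO_antibiotic 4, which left 3 called members. Mvk was also lost without KO_antibiotic 5, and Npc2 without KO_untreated 3 or KO_antibiotic 1. In the same comparison 10 of 12 cell division markers fell (Birc5, Plk1, Mcm5, Mcm2, Aurkb and Cdk1 had the smallest p, at -1.42 to -1.06), with a median of -1.16 over the 12, and their mean shift ranged from -0.92 to -0.41 in KO_antibiotic mice, against 0.16 to 0.97 in KO_untreated mice. With that mean as a covariate 0 members were called, with Fdps at -0.56, Srebf2 at -0.53 and Mvd at -0.39 (adjusted p = 0.520, 0.531 and 0.779), and 35 of all tested probes were called, against 2478. Of 13 surface colonocyte markers 4 rose (Trpm6, Saa1, Slc20a1 and Car4, by 0.67 to 1.35) and Cd177 was at -3.17. Of 13 leukocyte markers the mast cell proteases Mcpt1 and Cpa3 were called, at -3.86 and -1.46. Of the same 13, 9 were above 0, against 51.4% of all genes, and the median was 0.14. Krt18 was at -1.24 and the pancreas marker Cela1 at 0.94. Among the 13 epithelial markers, which include Krt18, 9 were above 0, and the median was 0.02. The part of the surface colonocyte, epithelial and pancreas markers in the members' differences was not tested. With the leukocyte mean as a covariate the count of called members was 5, and with the cell division mean, as given above, it was 0.

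In WT mice, 0 of 24 members were called for antibiotics by limma at their brightest probe (5 had an unadjusted p under 0.05: Nsdhl, Ebp, Dhcr7 and Tm7sf2 above 0 and Lbr below). Of all genes, 5.57% were called, 2.66% higher and 2.91% lower, and 21.3% had an unadjusted p under 0.05. Nsdhl differed by 0.40 ± 0.15 (SE, adjusted p = 0.126), Ebp by 0.31 ± 0.13 (adjusted p = 0.190), Dhcr7 by 0.34 ± 0.15 (adjusted p = 0.202) and Tm7sf2 by 0.44 ± 0.20 (adjusted p = 0.226). Srebf2 differed by 0.10 ± 0.17 (SE, adjusted p = 0.783) and Fdps by 0.15 ± 0.17 (adjusted p = 0.682). In this comparison 6 of 12 cell division markers fell (Top2a, Cdk1, Birc5, Aurkb, Plk1 and Mcm5), with a median of -0.84 over the 12. Cd177 (-2.43) and Krt18 (-0.60) fell too, while Saa1 and Cela1 were at 1.62 and 1.53. Among the 13 epithelial markers 7 were above 0, against 52.1% of all genes, and the median was 0.004. The mean shift of the 3 tested adipocyte and pancreas markers was 1.71 on WT_antibiotic 1, 2.66 on WT_antibiotic 5 and 2.24 on WT_untreated 4. It ranged from -0.52 to 0.23 in KO_antibiotic and from -0.77 to -0.28 in KO_untreated mice.

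Insig1 behaved differently by probe. Its dimmer tested probes rose in WT mice given antibiotics, while the brightest one did not pass. Of all tested probes 4.75% were called in this comparison, 2.49% higher. Probe ILMN_2606693 was at 7.16, 6.94, 6.71, 7.27 and 7.16 on WT_antibiotic arrays 1 to 5, and at 6.47, 5.88, 5.75, 5.37 and 5.93 on WT_untreated arrays 1 to 5. All 5 WT_antibiotic arrays were above the WT_untreated arrays, a pattern of 3.49% of genes at their brightest probe, and the difference was 1.17 ± 0.20 (SE, 2.24-fold, adjusted p = 0.00149).

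Probe ILMN_1245272 was at 7.21, 7.64, 7.36, 8.21 and 7.995 on WT_antibiotic arrays 1 to 5, against 6.91, 6.44, 6.58, 6.68 and 6.83 on WT_untreated arrays 1 to 5. The groups did not overlap, and the difference was 0.995 ± 0.18 (SE, 1.99-fold, adjusted p = 0.00252). The brightest probe, ILMN_2895388, gave 0.27 ± 0.16 (SE, adjusted p = 0.363), with arrays of both groups interleaved. In KO mice the 3 probes gave 0.19, 0.07 and 0.05 in the same order (adjusted p = 0.589, 0.843 and 0.870).

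**Figure D3:**
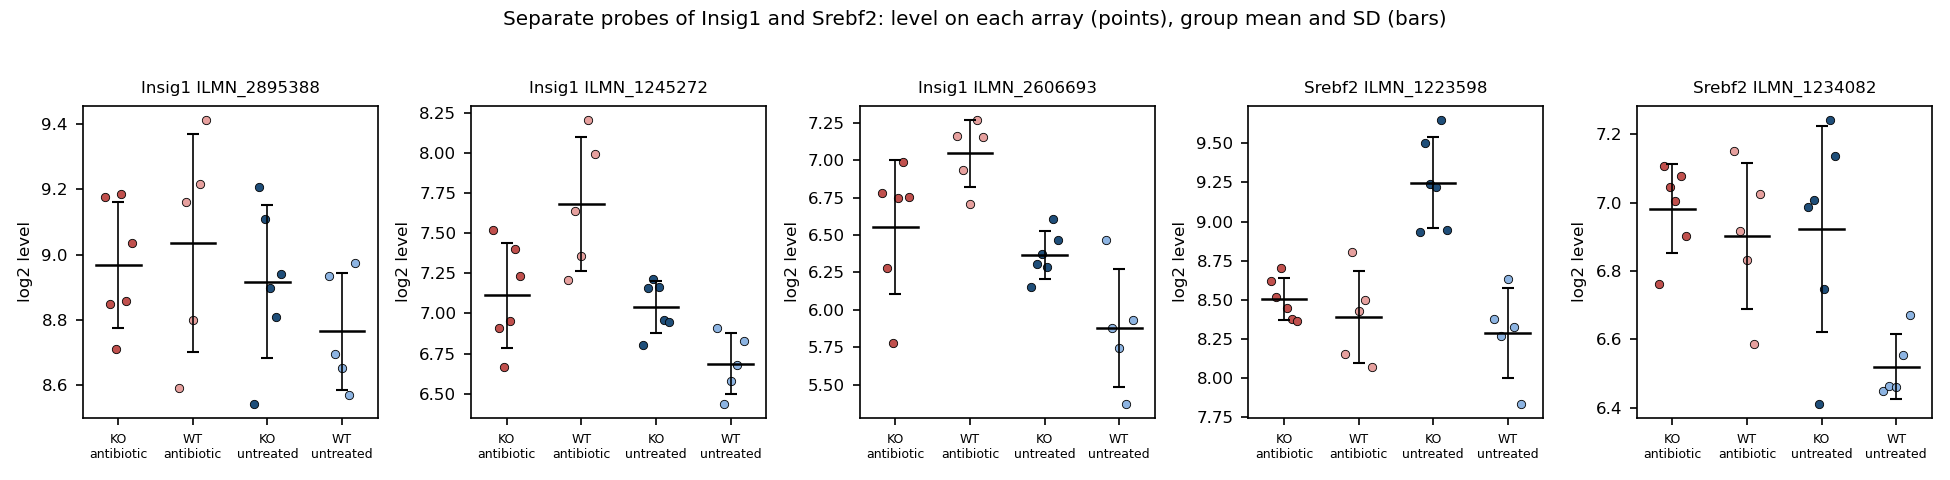
Log2 level (vertical axis) of 3 Insig1 probes and 2 Srebf2 probes on each array, by group, with the group mean and SD as bars (n = 6 for KO groups and 5 for WT groups). The WT_antibiotic arrays of the dimmer Insig1 probes lie above all WT_untreated arrays, and the brightest probe shows overlap. The 2 Srebf2 probes differ in whether KO_untreated arrays stand apart.

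Whether the antibiotic effect differed by genotype was asked through the interaction, the antibiotic difference in KO minus that in WT mice. None of the 24 members passed by limma (0% of all genes did), and 10 had an unadjusted p under 0.05, all below 0, against 8.97% of all genes in either direction and 5.09% below 0. Fdps was at -1.04 ± 0.24 (SE, adjusted p = 0.161), Mvd at -1.25 ± 0.32 (adjusted p = 0.336), Srebf2 at -0.85 ± 0.23 (adjusted p = 0.341) and Dhcr7 at -0.61 ± 0.20 (adjusted p = 0.480). The Insig1 probes ILMN_2606693 and ILMN_1245272 were at -0.98 and -0.92 (adjusted p = 0.379 and 0.341). A difference between the genotypes in their response to antibiotics was thus not called for any member.

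Averaged over the 16 tested synthesis enzymes, the shift from the WT_untreated mean ranged from -0.12 to 0.38 in KO_antibiotic, -0.15 to 0.37 in WT_antibiotic, 0.40 to 0.53 in KO_untreated and -0.33 to 0.19 in WT_untreated mice. All 6 KO_untreated arrays were above every array of the other 3 groups, though KO_untreated 3 (0.396) and KO_antibiotic 5 (0.382) nearly met. The mevalonate enzymes alone spanned 0.57 to 0.78 in KO_untreated and -0.56 to 0.35 in WT_untreated mice, and the sterol enzymes 0.27 to 0.45 and -0.23 to 0.12. In the antibiotic groups the sterol enzymes alone overlapped with KO_untreated, at -0.10 to 0.515 in KO_antibiotic and 0.001 to 0.447 in WT_antibiotic mice. KO_untreated 1 was the lowest of its group for the regulators, at -0.16, and the highest for cell division markers, at 0.97.

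**Figure D4:**
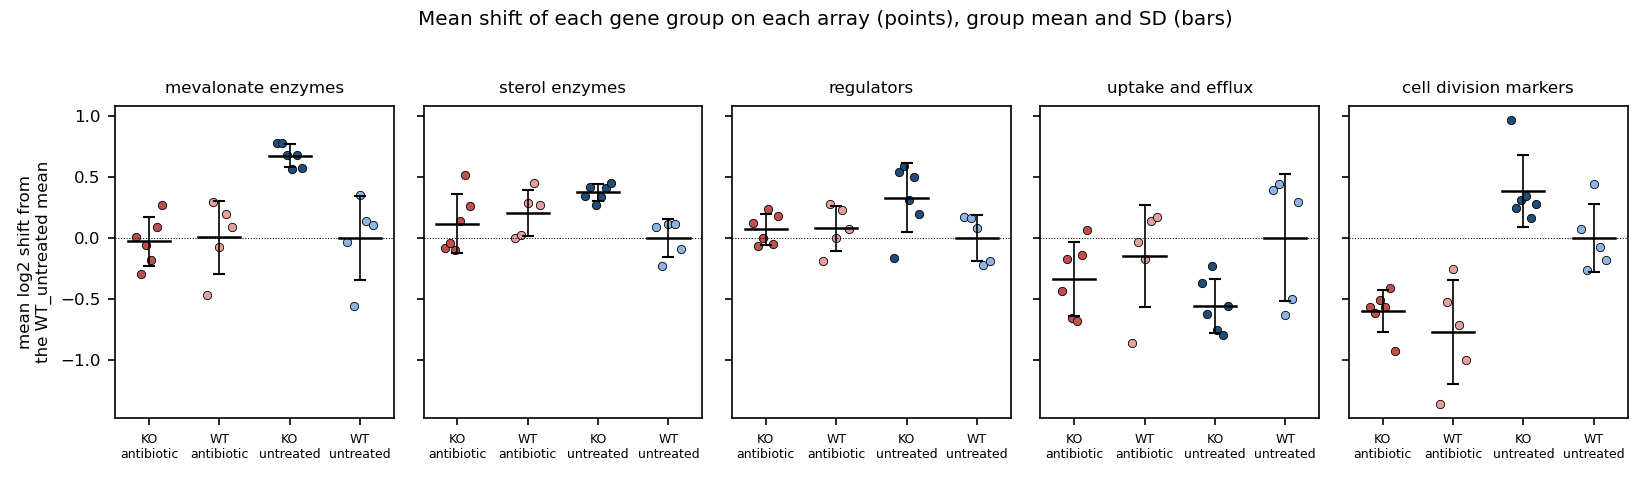
Mean log2 shift from the WT_untreated mean (vertical axis) of each gene group on each array, with the mean and SD as bars (n = 6 for KO groups and 5 for WT groups). The KO_untreated arrays lie above 0 for mevalonate and sterol enzymes, and the cell division markers are below 0 on all arrays of both antibiotic groups.

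Further sterol genes outside the members gave 25 tested genes, of 32 with a named probe. In KO_untreated against WT_untreated mice 1 rose and 2 fell, a share of 12% that equals the 12% called over all genes. Dhdds, a subunit of the enzyme that makes dolichol from farnesyl diphosphate, rose by 0.68 ± 0.16 (SE, adjusted p = 0.0136). Cyp27a1, the sterol 27-hydroxylase, was at -0.95 ± 0.26 (SE, adjusted p = 0.0230) and Pgrmc1, a heme protein that binds sterol P450 enzymes, at -0.66 ± 0.19 (adjusted p = 0.0335). With antibiotics Cyp27a1 rose in both genotypes, by 1.91 ± 0.24 in KO (adjusted p = 1.14e-05) and 1.49 ± 0.27 in WT mice (adjusted p = 0.00204). Its means were 8.60 ± 0.17 in KO_antibiotic and 6.69 ± 0.41 in KO_untreated mice (SD, n = 6 each), and 9.12 ± 0.34 in WT_antibiotic and 7.63 ± 0.76 in WT_untreated mice (SD, n = 5 each).

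Nr1h3, the LXR alpha receptor that senses oxysterols, also rose in both, by 0.61 ± 0.19 in KO and 0.86 ± 0.21 in WT mice (SE, adjusted p = 0.0369 and 0.0194). Gramd1b, which moves sterol from the plasma membrane, rose by 0.58 in KO and 0.67 in WT mice (adjusted p = 0.0103 and 0.0195). Of 25 genes, 5 rose and 2 fell in KO mice, against 6.16% higher and 8.6% lower over all genes, and 3 rose in WT mice, against 2.66%. The others that rose in KO mice were Pgrmc1 (0.58) and Erlin2 (0.30), and the 2 that fell were Lrp8, a lipoprotein receptor (-0.94), and Dhdds (-0.55).

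Fatty acid synthesis genes, which the related factor SREBP1 controls, were examined beside the sterol genes. By limma 0 of 13 tested genes were called between KO_untreated and WT_untreated mice (3 had an unadjusted p under 0.05, against 30.3% of all genes), and their median was 0.07. Me1, the malic enzyme that supplies NADPH, fell in both genotypes with antibiotics, by 1.55 on the log2 scale in KO and by 1.52 in WT mice (adjusted p = 0.00267 and 0.0179). Acacb, an acetyl-CoA carboxylase, also fell in both, by 1.07 in KO and by 1.26 in WT mice (adjusted p = 0.00437 and 0.00798). Fads1, a fatty acid desaturase, was at -1.46 in KO mice (adjusted p = 0.00717). These were the called genes, 3 of 13 in KO and 2 of 13 in WT mice. Over all genes, 14.8% were called in KO mice, 8.6% lower, and 5.57% in WT mice, 2.91% lower.

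Insig2, the other INSIG gene, lies on chromosome 1 as Pigr does and is given for that reason. Counted in protein-coding genes along the chromosome, it is at -32 from Pigr. Its probe ILMN_2690256 was at -1.47 ± 0.17 in KO_untreated against WT_untreated and at -1.27 ± 0.17 in KO_antibiotic against WT_antibiotic mice (SE, adjusted p = 1.95e-05 and 0.000525), with no overlap in either. Its other and brighter probe, ILMN_1216822, gave -0.37 and -0.42 (adjusted p = 0.0877 and 0.9999), so the size of the difference depended on the probe. Of the members on chromosome 1, Hsd17b7 and Lbr were tested and neither was called in any comparison. Both lie farther from Pigr than Insig2, at 281 and 449 on the same count. Whether distance from Pigr had a part in these differences was not tested.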

How the data were processed

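Values came from the authors' deposited scanner table. Per the file headers it holds an intensity per probe and array, on a linear scale, and a detection p-value beside it. The authors' deposited processed values are intensities too, served as an alternative only, and had a median of 52 on every array. The scanner software is not stated.

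Background correction and quantile normalisation used neqc in limma 3.58.1 (R 4.3.3; background from detection p-values, offset 16, log2). Probes with a detection p under 0.05 on at least 5 of 22 arrays were tested, 19993 in all. They were fitted in 1 limma model with 4 group means, and 5 contrasts were tested two-sided with Benjamini-Hochberg adjustment at 0.05. Each gene was read from the brightest of its tested probes by mean level. Annotation gave 34885 probes 1 symbol, 18 several and 10378 none; names were updated to GRCm38.p6. Levels are not compared between probes. The number of arrays limits precision: the median SE of a log2 difference was 0.177 between genotypes.

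The members, gene lists and tests were chosen with earlier results of these data known. All 35 members are accounted for; the 12 with the smallest p between the untreated genotypes have values per array or group ranges, as do up to 4 in each other contrast, some as differences only, and Srebf2, Insig1, Abca1 and Npc1l1 have group values or differences. Of the other lists, the members past the threshold are named per comparison, or at least the 6 with the smallest p.

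Alternatives were no background correction, median scaling over all probes or over probes detected on all arrays, the authors' values, no filter or a stricter one (detection p under 0.01), array weights, a block for the replicate number, a fit to only the compared groups, the mean over the probes of a gene, leukocyte marker level or detected probes as covariates, KO_untreated 1 and 2 averaged (their descriptions share a number), KO_untreated 1 alone, KO_antibiotic 3 and 4 left out, and each array left out in turn. The cell division covariate was added after seeing the data. The labels name no source shared by arrays of the same number, so the numbers were not taken as pairs. Of 31 same-numbered array pairs across groups, 12 had a residual correlation over 0.1. Pairs with unlike numbers were not counted beside them, so this count cannot decide whether the numbers mark pairs.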

Additional observations from a re-analysis of the deposited data

Results flagged for a closer look

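In 96 groups of arrays (24 members in 4 groups), 2 single arrays stood apart from the rest of their group by Dixon's criterion, which chance meets in about 1 in 20 groups. Stard4 was at 8.56 on KO_untreated 1, while the next lowest array of that group was at 9.77. Fdps was at 10.18 on WT_antibiotic 1, against 10.53 on the next lowest.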

How the results depend on the processing

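Of the members called in KO_untreated against WT_untreated mice (11), 4 were called under median scaling over all probes, all higher, 6 without a filter, also all higher, 2 with the cell division covariate and 0 with KO_untreated 1 as the only KO_untreated array. In KO_antibiotic against KO_untreated mice (5), 0 were called with the cell division covariate, 0 with KO_untreated 1 alone and 3 without KO_antibiotic 3 and 4. In WT_antibiotic against WT_untreated mice (0), 2 were called with array weights and 1 with probes averaged. The cause of these changes was not tested, except that the fit without a filter adjusts over 45281 probes, and single arrays give fewer samples. Leaving out 1 array at a time gave 6 to 11, 3 to 5 and 0 to 0 members in these comparisons. The remaining comparisons, KO_antibiotic against WT_antibiotic and the interaction, had 0 called members under every alternative run. No named member changed sign where it was called; 89 single results fell short of the threshold under an alternative and 7 newly passed it. Over all genes called in KO_untreated against WT_untreated mice, the count was 2180 probes in the fit reported, 319 under median scaling over all probes and 172 with the cell division covariate.

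With the replicate number as a block, the members called were 11, 0, 0, 5 and 0 in KO_untreated against WT_untreated, KO_antibiotic against WT_antibiotic, WT_antibiotic against WT_untreated, KO_antibiotic against KO_untreated and the interaction, the same counts as without it. Residual correlations of same-numbered arrays ranged from -0.377 to 0.527. Detection limits the dim members: 6 of the 30 with a probe were not tested.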
